A study of Homo sapiens with 6 samples.

Results

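The histone genes of the human genome were followed in PANC-1 cells after silencing of METTL16. Members were all rows of the expression table whose symbol begins with HIST1H, HIST2H, HIST3H or HIST4H, without the rows marked PS for pseudogene, plus 9 genes of histone variants (H2AFZ, H2AFX, H2AFV, H2AFY, H2AFJ, H3F3A, H3F3B, H1F0 and H1FX). This gave 84 of 58735 genes, 75 clustered and 9 variant. PANC-1 is an established line of pancreatic ductal adenocarcinoma, and METTL16 is an RNA methyltransferase that places the m6A mark. The control group (si-NC) held 3 biological replicates transfected with control siRNA, which another label of the same samples calls WT, and the silenced group (si-METTL16) held 3 transfected with siRNA against METTL16. The methods describe the sequenced cells as stably transfected, and for stable lines in general they name selection with puromycin. The comparison asked which genes change when METTL16 is silenced.

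Clustered histone genes encode the bulk core histones H2A, H2B, H3 and H4 and the linker histones H1. They lie in gene clusters, carry few or no introns, and are transcribed mainly in S phase, when new DNA must be packaged. Most of their mRNAs are not polyadenylated and instead end just after a conserved stem-loop that is bound by the protein SLBP, although several genes can also give polyadenylated mRNAs. Variant histone genes lie apart from the clusters, mostly contain introns, give polyadenylated mRNAs and are expressed throughout the cell cycle.

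The stem-loop is the sequence that sets both classes apart, so it is shown for the genes on which the results turn and for H2AFX, the variant gene that also holds it. It was searched for in the 100 bases after the stop codon of each gene in GENCODE v44 (GRCh38). All 66 clustered members with such a window held it, against 1 of 9 variant members and 72 of 19919 protein-coding genes (0.361%). Each sequence is written in the direction of the transcript with the stem and loop in capitals.
HIST1H1C (chr6:26055739-26055764, minus strand): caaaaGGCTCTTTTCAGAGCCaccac
HIST1H2BK (chr6:27146361-27146386, minus strand): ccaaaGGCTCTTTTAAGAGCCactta
HIST1H2BC (chr6:26123467-26123492, minus strand): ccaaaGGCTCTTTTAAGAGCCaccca
HIST1H2BE (chr6:26184205-26184230, plus strand): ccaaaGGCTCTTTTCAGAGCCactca
HIST1H2BJ (chr6:27132316-27132341, minus strand): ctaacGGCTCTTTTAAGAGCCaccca
HIST2H2BE (chr1:149886183-149886208, minus strand): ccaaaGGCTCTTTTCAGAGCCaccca
HIST3H2A (chr1:228457364-228457389, minus strand): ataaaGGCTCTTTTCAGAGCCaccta
H2AFX (chr11:119094893-119094918, minus strand): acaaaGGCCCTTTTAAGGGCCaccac

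Promoters of histone genes carry short shared elements, and the promoters of 3 H2B genes and of the H1 gene HIST1H1C are shown because these genes were called in opposite directions. The 150 bases before the RefSeq start (GRCh38.p14) are printed in the direction of the gene. Capitals mark matches on either strand to TATAAA, to CCAAT, to ATTTGCAT (the octamer of H2B promoters), to AAACACA (the H1 box) and to TTTNNCGC (an E2F-type site).
HIST1H2BK (chr6:27146859-27147008, minus strand): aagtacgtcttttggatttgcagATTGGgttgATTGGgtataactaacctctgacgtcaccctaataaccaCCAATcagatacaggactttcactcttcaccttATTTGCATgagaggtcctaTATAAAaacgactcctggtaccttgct
HIST1H2BJ (chr6:27132796-27132945, minus strand): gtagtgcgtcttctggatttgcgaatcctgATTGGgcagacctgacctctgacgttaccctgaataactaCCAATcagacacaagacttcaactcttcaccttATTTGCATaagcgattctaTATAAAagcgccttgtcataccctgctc
HIST2H2BE (chr1:149886683-149886832, minus strand): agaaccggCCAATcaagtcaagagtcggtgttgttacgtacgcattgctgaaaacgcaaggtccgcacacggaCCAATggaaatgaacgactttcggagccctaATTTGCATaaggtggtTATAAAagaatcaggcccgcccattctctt
HIST1H1C (chr6:26056471-26056620, minus strand): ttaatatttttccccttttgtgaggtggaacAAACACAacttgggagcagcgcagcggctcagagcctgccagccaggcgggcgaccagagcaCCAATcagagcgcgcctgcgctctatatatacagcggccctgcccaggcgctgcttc

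RefSeq promoters, from 250 bases before to 50 bases after the start, were at hand for 37 members, 31 clustered and 6 variant. The counts are of genes, and a gene was counted if any of its RefSeq promoters held the match. CCAAT was found for 30 of the 31 clustered genes (96.8%) and TATAAA for 21 (67.7%). The shares of all 27305 genes with a RefSeq promoter were 39.7% and 14.0%. Of the 6 variant genes, 5 held CCAAT (83.3%) and 3 held TATAAA. ATTTGCAT was found for 9 of 13 H2B and 5 of 8 H2A genes, against 2.19% of all such genes, and for 0 of the 6 variant genes. The H1 box was found for all 6 clustered H1 genes, against 6.94% of all such genes. TTTNNCGC was found for 11 clustered genes (35.5%) against 8.23% of all such genes. In HIST1H2BK, HIST1H2BJ and HIST2H2BE the octamer began 46, 47 and 46 bases before the start. A match is a description of the letters and was not tested as a binding site.

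The 6 libraries held 15725298 to 18054436 counts. METTL16 had counts of 1546, 1641 and 1764 in the si-NC replicates and of 571, 528 and 627 in the si-METTL16 replicates, so the target was lower in every silenced sample (log2 fold change -1.48). The ductal markers KRT8, KRT18, KRT19, EPCAM and SOX9 each had a mean FPKM of at least 1, and KRT7 lay under 1. None of the acinar, endocrine or fibroblast markers reached 1, and of the immune markers only CD68 did. No library was a copy of another, since counts of any 2 samples of a group differed by far more than sampling noise (chi-square per degree of freedom at least 10.4).

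The summed levels of clustered and variant transcripts lay on opposite sides of the controls after silencing (CPM, counts scaled to a common total with TMM factors). The 75 clustered genes summed to 346, 326 and 342 CPM in the si-NC replicates and to 288, 258 and 291 CPM in the si-METTL16 replicates. Every silenced sample was lower than every control sample, with means of 338 ± 10.6 and 279 ± 18.1 CPM (SD, n = 3) and a ratio of 0.825. Of these, HIST1H2BK and HIST1H1C summed to 128 ± 2.66 CPM in the controls and 67.3 ± 10.5 CPM after silencing (SD, n = 3). The other 73 clustered genes, a split made after the values were seen, summed to 217, 202 and 213 CPM in the controls and to 223, 199.8 and 212 CPM after silencing, with overlapping groups and a ratio of 1.00. The 9 variant genes summed to 1064, 1072 and 1192 CPM in the controls and to 1782, 1654 and 1592 CPM after silencing. Here every silenced sample was higher, with means of 1109 ± 71.9 and 1676 ± 96.8 CPM (SD, n = 3) and a ratio of 1.51. Much of this sum came from 3 genes. Their means in controls and after silencing were 272 ± 3.76 and 559 ± 32.1 CPM for H1F0 and 238 ± 10.0 and 356 ± 54.5 CPM for H2AFZ. For H3F3B, whose groups overlapped, they were 269.6 ± 70.6 and 349 ± 65.9 CPM (SD, n = 3). The means of H2AFV and H1FX were lower after silencing, so the ratio does not describe every variant gene. As a share of all histone counts, clustered genes held 24.6%, 23.3% and 22.3% in the controls and 13.9%, 13.5% and 15.5% after silencing. These sums are descriptions and carry no test. In bulk RNA, a change in the share of cells in a phase of the cycle and a change in histone mRNA per cell cannot be told apart. A list of other S phase genes had 28 of 30 called higher and 0 lower, as described at the end, beside 18.4% and 17.5% of all genes.

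**Figure D1:**
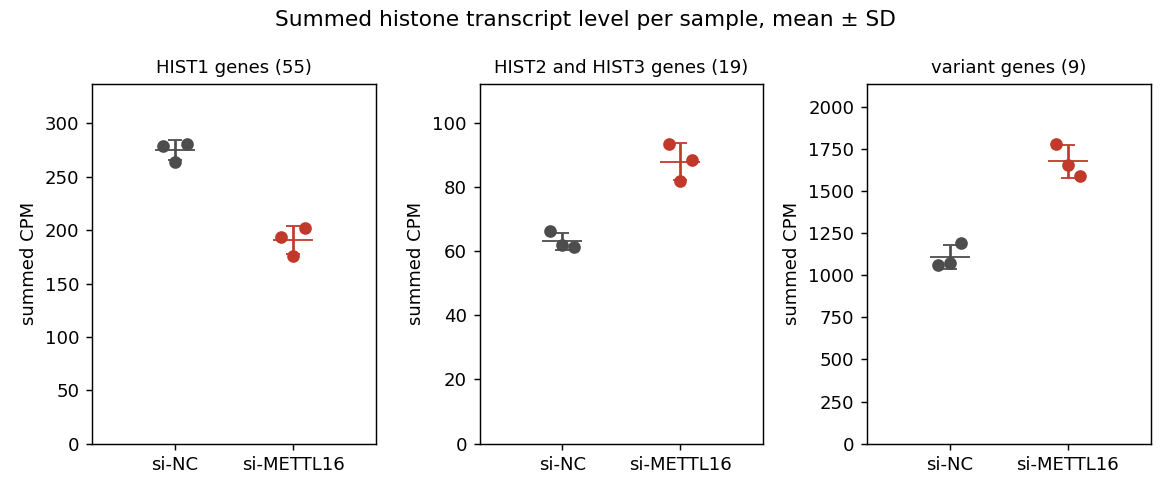
Summed CPM of 55 HIST1 genes, 19 HIST2 and HIST3 genes and 9 variant genes in each sample of si-NC and si-METTL16 cells (points), with mean ± SD. The HIST1 sum lies lower in all 3 silenced samples, and the sums of the HIST2 and HIST3 genes and of the variant genes lie higher.

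After the filter on low counts, 29 clustered and 9 variant genes were tested with edgeR. A gene was called at an adjusted p under 0.05 over all 15089 genes tested, of which 35.9% were called, 18.4% higher and 17.5% lower after silencing. Of the 29 clustered genes, 5 were called higher (17.2%), 7 lower (24.1%) and 17 were not called. Of the 9 variant genes, 4 were called higher (44.4%), 0 lower and 5 were not called. At an unadjusted p under 0.05, and with DESeq2 and limma, the count of variant genes called lower was also 0. The median log2 fold change was -0.20 for the clustered genes and 0.43 for the variant genes, beside -0.00 for all genes. The clustered median turned to 0.03 without a filter on low counts. It was -0.01 with at least 10 counts in every sample, -0.05 without si-METTL16 replicate 2, -0.34 without si-METTL16 replicate 1 and -0.38 with near-identical copies summed. In leave-one-out fits, 7 to 10 clustered genes were called, 3 to 4 of them higher and 4 to 6 lower. The total was 7, with 3 higher and 4 lower, without si-NC replicate 2, without si-METTL16 replicate 1 and without si-METTL16 replicate 3, and 4 genes were called lower also without si-NC replicate 3 and without si-METTL16 replicate 2. The variant median was 0.22 without si-METTL16 replicate 1.

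The other 46 clustered genes were too low to test, and 10 of them had 0 counts in all samples. Their highest count in any sample was 16, and together they summed to 5.66 ± 0.494 CPM in the controls and 6.66 ± 1.02 CPM after silencing (SD, n = 3). HIST1H4C, an H4 gene of the chromosome 6 cluster, was among them with counts of 5, 3 and 2 in si-NC and of 3, 0 and 6 in si-METTL16 replicates (named after its values were seen). All clustered genes together held 0.0348%, 0.0328% and 0.0345% of the total count in the si-NC replicates. Of the tested clustered genes, 19 of 29 had a length of at least 1000 bases, whereas 39 of the 46 untested genes were shorter. The length is the one implied by count and FPKM, or the span of a gene at 0, and the limit was chosen after the values were seen. The library kit was an mRNA kit. Of 23 rows of other RNAs without a poly(A) tail, which hold 22 different symbols, 8 had 0 counts in all samples, and together they summed to 18.6, 17.2 and 23.2 CPM in the controls and to 9.39, 11.9 and 13.6 CPM after silencing. RN7SL2, the most counted of these RNAs, was called lower (log2 fold change -1.14, edgeR adjusted p = 0.00373). The other 3 tested rows, RN7SL1, RN7SK and SNORD3A, were not called (log2 fold changes -0.81, 0.35 and 1.45), and the median of the 4 was -0.23. The summed level of these RNAs was lower in every silenced sample, and its part in the clustered histone results was not tested.

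H1F0 and HIST1H1C, a variant and a clustered linker histone gene, were called in opposite directions. H1F0 encodes H1.0, the linker histone that accumulates in cells that have slowed or stopped dividing. Its counts were 4531, 4677 and 4751 in si-NC and 9764, 8570 and 9582 in si-METTL16 replicates. The groups did not overlap, and H1F0 rose 2.06-fold (log2 fold change 1.04 ± 0.06 SE, edgeR adjusted p = 9.4e-05). HIST1H1C encodes H1.2, a linker histone found in most somatic cells, and its counts were 731, 726 and 758 in si-NC and 263, 211 and 358 in si-METTL16 replicates. It fell to 0.383 of the control level (log2 fold change -1.38 ± 0.14 SE, edgeR adjusted p = 5.0e-04), again with no overlap. Of the 6 clustered H1 genes only HIST1H1C was tested, and the other 5 had at most 12 counts in a sample. H1FX, which encodes the linker variant H1.X, had 558, 608 and 609 counts in si-NC and 567, 447 and 449 in si-METTL16 replicates, and its groups overlapped (log2 fold change -0.23, edgeR adjusted p = 0.192). Without si-METTL16 replicate 1 it was called lower (log2 fold change -0.37, edgeR adjusted p = 0.0425, range over all alternatives 0.0425 to 0.444). H1FX overlaps the antisense gene H1-10-AS1, and whether counting used strand is not given in the sources used here. The same limit holds for the called genes H2AFZ, HIST1H2BE and HIST2H3DP1, which also overlap genes on the opposite strand in GENCODE. In GENCODE HIST1H2BC overlaps such genes too, among them HIST1H4C. The deposited row of HIST1H2BC (26114873 to 26123926) does not reach that of HIST1H4C.

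Among the H2A variants, 3 of 5 were called higher, beside 18.4% of all genes. H2AFX encodes H2A.X, which is phosphorylated around DNA breaks, and its mRNA is known in a stem-loop form and a polyadenylated form. Its counts were 831, 891 and 942 in si-NC and 1678, 1707 and 2075 in si-METTL16 replicates, a rise of 2.10-fold without overlap (log2 fold change 1.07 ± 0.07 SE, edgeR adjusted p = 1.5e-04). H2AFZ encodes H2A.Z, placed at promoters and regulatory regions, and had 4215, 3924 and 4087 counts in si-NC and 5641, 6478 and 5541 in si-METTL16 replicates. It rose 1.50-fold without overlap (log2 fold change 0.58 ± 0.11 SE, edgeR adjusted p = 0.00590). H2AFJ, which encodes H2A.J, had 355, 447 and 426 counts in si-NC and 706, 603 and 736 in si-METTL16 replicates. It rose 1.71-fold (log2 fold change 0.78 ± 0.11 SE, edgeR adjusted p = 0.00159), and its groups did not overlap.

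The other H2A variants stayed under the threshold. H2AFV encodes a close relative of H2A.Z, and its counts were 1757, 1743 and 1872 in si-NC and 1670, 1601 and 1874 in si-METTL16 replicates (log2 fold change -0.02 ± 0.05 SE, edgeR adjusted p = 0.779). H2AFY encodes macroH2A1, a large H2A variant of silent chromatin, and its counts were 1528, 1470 and 1757 in si-NC and 1665, 1534 and 1709 in si-METTL16 replicates (log2 fold change 0.09 ± 0.07 SE, edgeR adjusted p = 0.386). For both genes the groups overlapped.

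The genes of H3.3, the H3 variant laid down outside replication, had higher means after silencing but did not pass the threshold. H3F3B had 3665, 4108 and 6131 counts in si-NC and 6859, 4472 and 6145 in si-METTL16 replicates. The high si-NC replicate 3 overlapped the silenced group (log2 fold change 0.37 ± 0.20 SE, edgeR adjusted p = 0.192), and without it H3F3B was called higher (0.60, edgeR adjusted p = 0.0380, range over all alternatives 0.0380 to 0.473). H3F3B overlaps the gene UNK on the opposite strand. H3F3A had 532, 331 and 327 counts in si-NC and 684, 379 and 501 in si-METTL16 replicates, with overlapping groups (log2 fold change 0.43 ± 0.27 SE, edgeR adjusted p = 0.247). Its log2 fold change was 0.17 without si-METTL16 replicate 1 and 0.71 without si-NC replicate 1, and neither passed the threshold. It was called higher with the replicate number as a block (0.43, edgeR adjusted p = 0.0259, range over all alternatives 0.0259 to 0.644), although the methods name no pairing of samples.

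The count of H3F3A is uncertain, because its row held only 15.1% of the counts summed over H3F3A and 6 pseudogenes. The pseudogene rows H3F3AP4 and H3F3AP6 held the most of the rest, with 1651, 1686 and 1611 counts of H3F3AP4 in si-NC and 1689, 1747 and 1866 in si-METTL16 replicates. Summed over these copies, the log2 fold change was 0.19 ± 0.06 SE and passed the threshold (edgeR adjusted p = 0.0415, with the sum chosen after the data were seen). For H2AFZ and H3F3B the pseudogenes held 12 and 4 counts over all samples, and for H2AFV its pseudogene held 456 against 10517 for the gene.

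**Figure D2:**
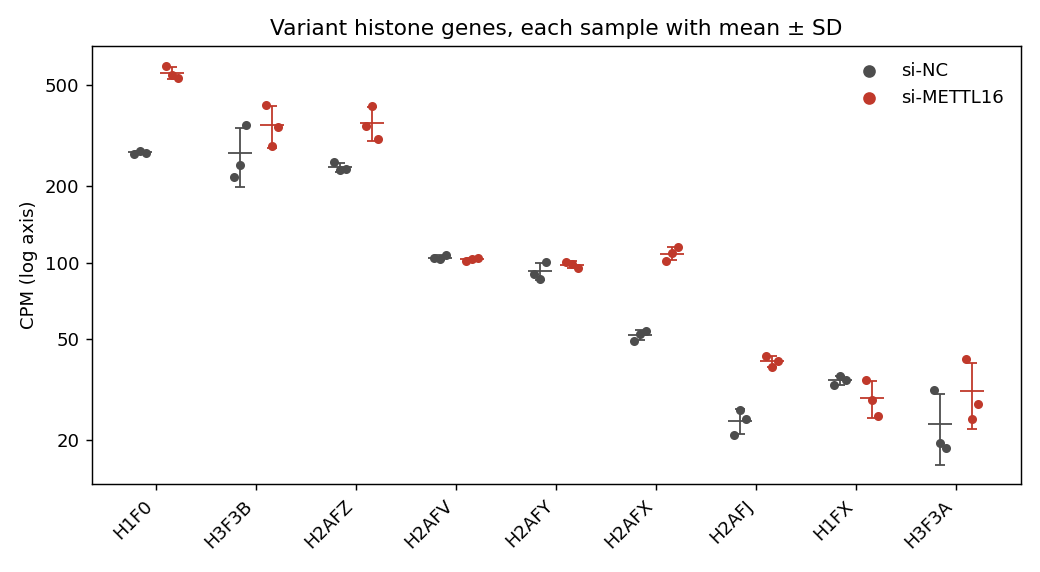
CPM (log axis) of the 9 variant histone genes in each sample of si-NC and si-METTL16 cells, with mean ± SD. H1F0, H2AFZ, H2AFX and H2AFJ lie higher in all 3 silenced samples, and the groups of the other 5 genes overlap.

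Clustered H2B genes were called in both directions. Of 11 tested, 3 were called higher (27.3%) and 4 lower (36.4%), beside 18.4% and 17.5% of all genes. HIST1H2BK, the clustered gene with the most counts, had 1447, 1387 and 1509 in si-NC and 800, 699 and 1060 in si-METTL16 replicates. It fell to 0.602 of the control level without overlap (log2 fold change -0.73 ± 0.11 SE, edgeR adjusted p = 0.00219). HIST1H2BC had 167, 184 and 176 counts in si-NC and 73, 96 and 81 in si-METTL16 replicates, and fell to 0.491 of the control level (log2 fold change -1.03 ± 0.17 SE, edgeR adjusted p = 0.00325). HIST1H2BE had 71, 74 and 60 counts in si-NC and 31, 40 and 35 in si-METTL16 replicates (log2 fold change -0.90 ± 0.22 SE, edgeR adjusted p = 0.0159). The call held in 3 of 6 leave-one-out fits. It was lost without si-NC replicate 2 (adjusted p = 0.0539), without si-METTL16 replicate 1 (0.0520) and without si-METTL16 replicate 3 (0.0523). The remaining H2B gene called lower was HIST1H2BN (log2 fold change -0.66, edgeR adjusted p = 0.0422), named after its values were seen. With the replicate number as a block, 6 clustered genes were called lower, and HIST1H2BN was not among them. Its deposited row spans 28039 bases, in which HIST1H2AK and HIST1H2AL also lie.

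The H2B genes called higher were HIST2H2BE, HIST2H2BA and HIST1H2BJ. HIST2H2BE is known to give a polyadenylated mRNA in addition to the stem-loop form, and the deposited row of 2194 bases extends past the stem-loop. Its counts were 189, 209 and 187 in si-NC and 352, 293 and 363 in si-METTL16 replicates, a rise of 1.77-fold without overlap (log2 fold change 0.82 ± 0.11 SE, edgeR adjusted p = 0.00134). HIST2H2BA, a transcribed H2B pseudogene in GENCODE, had 57, 64 and 61 counts in si-NC and 110, 102 and 118 in si-METTL16 replicates (log2 fold change 0.90 ± 0.14 SE, edgeR adjusted p = 0.00300). HIST1H2BJ had 64, 66 and 78 counts in si-NC and 121, 124 and 126 in si-METTL16 replicates (log2 fold change 0.88 ± 0.15 SE, edgeR adjusted p = 0.00372). It was the only one of the 20 tested HIST1 genes to be called higher. HIST1H2BD, with 587, 462 and 598 counts in si-NC and 506, 467 and 559 in si-METTL16 replicates, overlapped between groups (log2 fold change -0.06 ± 0.11 SE, edgeR adjusted p = 0.681). HIST2H2BD, another H2B pseudogene in GENCODE, had 223, 218 and 177 counts in si-NC and 265, 225 and 239 in si-METTL16 replicates, and was not called (log2 fold change 0.28, edgeR adjusted p = 0.169).

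Of the 7 tested clustered H2A genes, HIST3H2A was called higher and HIST1H2AC lower. HIST3H2A had 54, 38 and 42 counts in si-NC and 108, 60 and 91 in si-METTL16 replicates (log2 fold change 0.98 ± 0.26 SE, edgeR adjusted p = 0.0225), and HIST1H2AC had 855, 758 and 873 and then 661, 523 and 668 (log2 fold change -0.39 ± 0.10 SE, edgeR adjusted p = 0.0198). Each of these calls held in 2 of 6 leave-one-out fits. For HIST3H2A the adjusted p was 0.0731 without si-NC replicate 2, 0.0738 without si-NC replicate 3, 0.0717 without si-METTL16 replicate 1 and 0.0543 without si-METTL16 replicate 3. For HIST1H2AC it was 0.0568 without si-NC replicate 1, 0.0618 without si-NC replicate 3, 0.0566 without si-METTL16 replicate 2 and 0.0515 without si-METTL16 replicate 3.

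HIST1H2AG had 146, 182 and 212 counts in si-NC and 142, 111 and 131 in si-METTL16 replicates and was not called (log2 fold change -0.45, edgeR adjusted p = 0.0719). It was called lower without si-NC replicate 1 (edgeR adjusted p = 0.0372, range over all alternatives 0.0372 to 0.206). With all samples, limma called it lower on log2(FPKM + 1) (adjusted p = 0.0475) and on log2(FPKM + 0.1) (adjusted p = 0.0461). DESeq2 and limma on voom values did not call it. HIST2H2AA3 and HIST2H2AA4 are near-identical copies between which reads can be split. HIST2H2AA3 had 148, 117 and 137 counts in si-NC and 146, 156 and 180 in si-METTL16 replicates, and HIST2H2AA4 had 230, 232 and 251 and then 243, 236 and 320. Neither was called (log2 fold changes 0.30 and 0.20), nor was their sum (0.24 ± 0.10 SE, edgeR adjusted p = 0.0960).

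**Figure D3:**
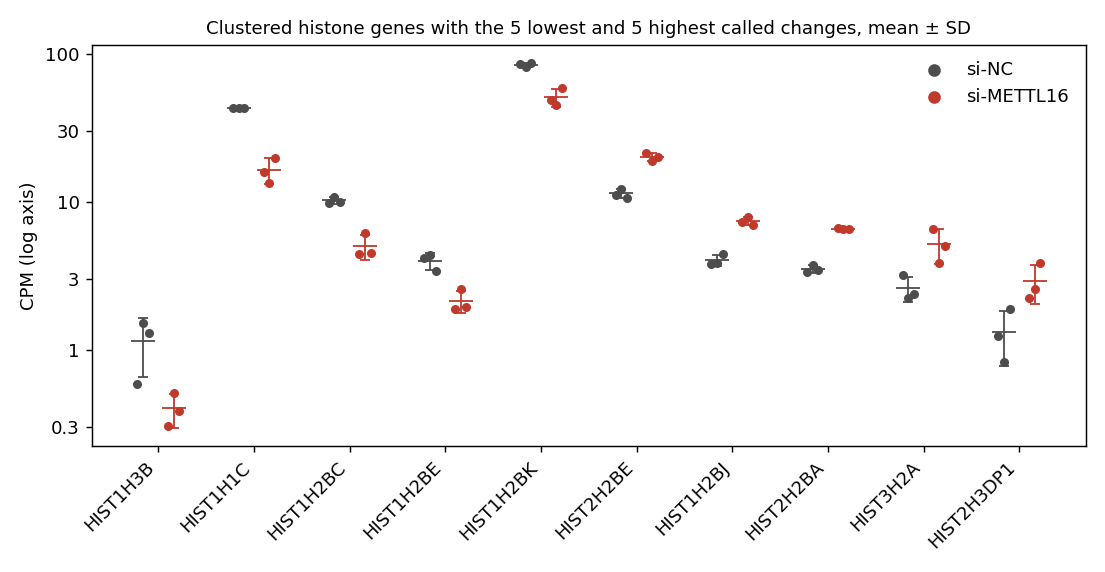
CPM (log axis) of the clustered genes with the 5 lowest and the 5 highest log2 fold changes among called genes with non-overlapping groups, in each sample, with mean ± SD. The 5 genes on the left lie lower and the 5 on the right higher in all 3 si-METTL16 samples, and HIST1H3B and HIST2H3DP1 show the widest spread between replicates relative to their means.

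Clustered H3 and H4 genes were mostly low in these libraries. Of 5 tested H3 genes, HIST1H3B was called lower and HIST2H3DP1 higher, both at low counts. HIST1H3B had 10, 26 and 23 counts in si-NC and 5, 8 and 7 in si-METTL16 replicates (log2 fold change -1.50 ± 0.46 SE, edgeR adjusted p = 0.0405). HIST2H3DP1, an H3 pseudogene in GENCODE, had 21, 14 and 33 counts in si-NC and 37, 40 and 70 in si-METTL16 replicates (log2 fold change 1.14 ± 0.36 SE, edgeR adjusted p = 0.0462). Each call held in 1 of 6 leave-one-out fits, HIST1H3B only without si-NC replicate 1, and HIST2H3DP1 only without si-NC replicate 3. In the other fits the adjusted p of HIST1H3B was 0.0708 to 0.128 and that of HIST2H3DP1 was 0.0571 to 0.144. Without a filter on low counts neither was called (edgeR adjusted p = 0.0715 and 0.0783). HIST1H3B was also not called with DESeq2 (adjusted p = 0.0590) or with limma on voom values (adjusted p = 0.0708). Its call held with limma on log2 FPKM values.

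Of the 5 tested H4 genes, 0 were called by edgeR, beside 35.9% of all genes, and 0 had an unadjusted p under 0.05. The count was also 0 with DESeq2 and with limma on voom values. HIST2H4A had 125, 110 and 128 counts in si-NC and 167, 89 and 105 in si-METTL16 replicates (log2 fold change 0.04 ± 0.24 SE, edgeR adjusted p = 0.925). Its direction turned under several settings, to -0.29 without si-METTL16 replicate 1. Its coding sequence is identical to that of HIST2H4B, so reads can be split between them, and their sum was not called either (0.19 ± 0.21 SE, edgeR adjusted p = 0.523). HIST1H4H had 119, 90 and 114 counts in si-NC and 137, 110 and 125 in si-METTL16 replicates (log2 fold change 0.25, edgeR adjusted p = 0.278).

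By class, the summed level after silencing was 0.395 of the control for clustered H1, 0.855 for H2B, 0.896 for H2A, 0.937 for H3 and 1.12 for H4. In H2A, H3 and H4 the samples of the groups overlapped. The H3 sums were 15.3, 17.0 and 15.7 CPM in the controls and 14.1, 13.8 and 17.0 CPM after silencing. The H1 sums, from 43.6, 43.5 and 44.0 CPM to 16.9, 14.0 and 20.8 CPM, came almost wholly from HIST1H1C.

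Called clustered genes differed in direction between the HIST1 genes of chromosome 6 and the HIST2 and HIST3 genes of chromosome 1. This split by symbol was chosen after the values were seen. Of the 20 tested HIST1 genes on chromosome 6, 7 were called lower (35.0%) and 1 higher (5.00%), with a median log2 fold change of -0.43. Over all genes, 17.5% were called lower and 18.4% higher. Of the 9 tested HIST2 and HIST3 genes on chromosome 1, 4 were called higher (44.4%) and 0 lower, with a median of 0.53 and a range from 0.04 to 1.14. At an unadjusted p under 0.05, and with DESeq2 and limma, 0 of the HIST2 and HIST3 genes were lower as well. HIST1 genes summed to 279, 264 and 281 CPM in the controls and to 194, 176 and 202 CPM after silencing (ratio 0.695). HIST2 and HIST3 genes summed to 66.2, 61.8 and 61.3 CPM in the controls and to 93.5, 81.9 and 88.4 CPM after silencing (ratio 1.39). Of the 4 called higher on chromosome 1, HIST2H2BA and HIST2H3DP1 are pseudogenes in GENCODE that lie 937 bases apart by the deposited coordinates. They start at 121108210 and 121118195, far from the other tested HIST2 genes, which start between 149832659 and 149884459. Of those other HIST2 genes only HIST2H2BE was called, so the counts do not describe a single cluster. HIST1H2BK and HIST1H1C hold 30.8% and 15.7% of the HIST1 sum in si-NC cells, and the other 53 HIST1 genes had a ratio of 0.839.

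**Figure D4:**
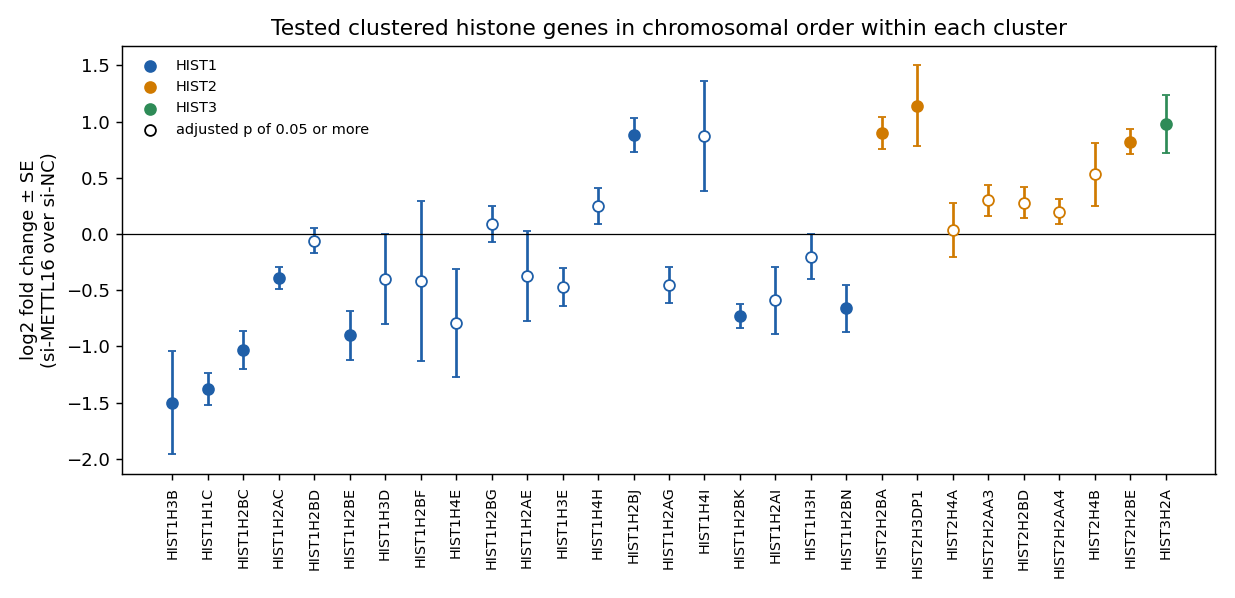
Log2 fold change ± SE of the 29 tested clustered histone genes (si-METTL16 over si-NC), in chromosomal order within the HIST1, HIST2 and HIST3 symbols. Filled points passed the threshold. Most HIST1 points lie below 0, with HIST1H2BJ as the called exception, and the HIST2 and HIST3 points lie above 0.

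Genes with the same stem and loop were called in both directions. The stem and loop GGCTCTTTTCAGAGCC was held by 36 members, of which 2 were called higher, 4 lower and 5 were not called, and the other 25 were not tested. The form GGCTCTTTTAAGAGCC was held by 10 members, of which 1 was called higher (HIST1H2BJ) and 2 lower (HIST1H2BK and HIST1H2BC). HIST1H2BJ and HIST1H2BK were called in opposite directions, while in the stretches printed above the octamer, the TATAAA and the CCAAT nearest to the start lie within 1 base of the same position. Further upstream their CCAAT matches differ in number and position. In 3 pairs of neighbours that start close together on opposite strands, both genes were tested. HIST1H2BJ and HIST1H2AG start 248 bases apart, and their log2 fold changes were 0.88 and -0.45, the second not called. HIST1H2BC and HIST1H2AC start 219 bases apart, and both were called lower (-1.03 and -0.39). HIST1H2BG and HIST1H2AE start 233 bases apart, and neither was called (0.09 and -0.37). The partners of HIST1H2BK, HIST2H2BE and HIST3H2A in such pairs (HIST1H2AH, HIST2H2AC and HIST3H2BB) were too low to test, with at most 9 counts in a sample. These are counts of few genes, beside 18.4% called higher and 17.5% lower of all genes, and carry no test.

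Of 16 tested genes of the transcription, 3′ end processing and decay of clustered histone mRNA, 6 were called higher (37.5%) and 0 lower. The shares of all genes were 18.4% higher and 17.5% lower, or 35.9% in either direction. The median log2 fold change of the 16 genes was 0.23. At an unadjusted p under 0.05, and with DESeq2 and limma, the count called lower was also 0. ZNF473, a zinc finger protein of the U7 snRNP machinery that cuts histone pre-mRNA, had 211, 211 and 221 counts in si-NC and 583, 602 and 658 in si-METTL16 replicates. It rose 2.95-fold without overlap (log2 fold change 1.56 ± 0.08 SE, edgeR adjusted p = 9.2e-05). NPAT, the activator that gathers at histone gene clusters, had 758, 672 and 831 counts in si-NC and 923, 1062 and 1126 in si-METTL16 replicates (log2 fold change 0.50 ± 0.10 SE, edgeR adjusted p = 0.00883). UPF1, a helicase needed for the decay of histone mRNA, had a log2 fold change of 0.34 (edgeR adjusted p = 0.0110).

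SLBP, which binds the stem-loop, had 1482, 1388 and 1215 counts in si-NC and 1667, 1634 and 1473 in si-METTL16 replicates, and its groups overlapped in CPM (log2 fold change 0.27 ± 0.12 SE, edgeR adjusted p = 0.129). It was called higher without si-METTL16 replicate 3 (edgeR adjusted p = 0.0482, range over all alternatives 0.0336 to 0.327). The U7 snRNP proteins LSM10 and LSM11, CASP8AP2 (a partner of NPAT), HINFP (an activator of H4 genes) and ERI1 (an exonuclease that trims the stem-loop end) were not called, with log2 fold changes of 0.04, 0.25, 0.18, 0.03 and 0.20. The direction of LSM10, HINFP and ERI1 turned when single samples were left out, and ERI1 was called higher without si-METTL16 replicate 3 (log2 fold change 0.48, edgeR adjusted p = 0.0163).

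Chaperones, which carry new histones to DNA, were called in both directions, 13 higher (46.4%) and 6 lower (21.4%) of 28 tested. Over all genes these shares were 18.4% and 17.5%. The median log2 fold change of the chaperones was 0.08. Over both lists together the number called lower fell from 6 to 3 without si-NC replicate 3 and without si-METTL16 replicate 3. CHAF1A and CHAF1B, subunits of the assembly factor CAF-1, had log2 fold changes of 0.91 ± 0.10 SE and 1.27 ± 0.18 SE (edgeR adjusted p = 7.4e-04 and 0.00182). Of the FACT complex, which moves histones at forks and at transcribed genes, SUPT16H was called lower (log2 fold change -0.52 ± 0.10 SE, edgeR adjusted p = 0.00725) and SSRP1 was not called (0.03). ASF1B had 178, 214 and 165 counts in si-NC and 464, 415 and 435 in si-METTL16 replicates (log2 fold change 1.28 ± 0.13 SE, edgeR adjusted p = 5.6e-04). Its paralog ASF1A had 558, 629 and 661 counts in si-NC and 364, 462 and 499 in si-METTL16 replicates and was called lower (log2 fold change -0.44 ± 0.12 SE, edgeR adjusted p = 0.0307). The ASF1A call held in 2 of 6 leave-one-out fits, with an adjusted p of 0.0767 without si-NC replicate 2, 0.0922 without si-NC replicate 3, 0.0578 without si-METTL16 replicate 1 and 0.0597 without si-METTL16 replicate 3. NASP, which holds the pool of free H3 and H4, had 2224, 2233 and 2603 counts in si-NC and 4169, 3946 and 4496 in si-METTL16 replicates (log2 fold change 0.88 ± 0.06 SE, edgeR adjusted p = 1.7e-04). HAT1, which acetylates new H4, had a log2 fold change of 0.82 (edgeR adjusted p = 4.5e-04).

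Carriers of variant histones were also split. HJURP, the chaperone of the centromeric H3 variant, had 555, 687 and 651 counts in si-NC and 1578, 1558 and 1805 in si-METTL16 replicates (log2 fold change 1.42 ± 0.09 SE, edgeR adjusted p = 1.2e-04). CENPA, the centromeric H3 itself and no member by the rule, had 100, 191 and 100 counts in si-NC and 287, 308 and 338 in si-METTL16 replicates (log2 fold change 1.29 ± 0.26 SE, edgeR adjusted p = 0.00821). ANP32E, which removes H2A.Z from chromatin, had 3214, 3175 and 3446 counts in si-NC and 1871, 1995 and 2246 in si-METTL16 replicates and was called lower (log2 fold change -0.65 ± 0.06 SE, edgeR adjusted p = 4.5e-04). It thus went in the direction opposite to H2AFZ. Of the H3.3 chaperones in the fixed choice of genes, HIRA and DAXX were not called (log2 fold changes 0.13 and -0.25). HIRA was at -0.11 without si-METTL16 replicate 3. The chaperone list also held CABIN1, called higher (log2 fold change 0.67, edgeR adjusted p = 0.00216). On the same list EP400 was called lower (log2 fold change -0.23, edgeR adjusted p = 0.0339). ATRX, the partner of DAXX, was called lower (log2 fold change -0.35, edgeR adjusted p = 0.0358). The call held in 2 of 6 leave-one-out fits, and the adjusted p was 0.0954 to 0.114 without si-NC replicate 2, si-NC replicate 3, si-METTL16 replicate 2 or si-METTL16 replicate 3.

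**Figure D5:**
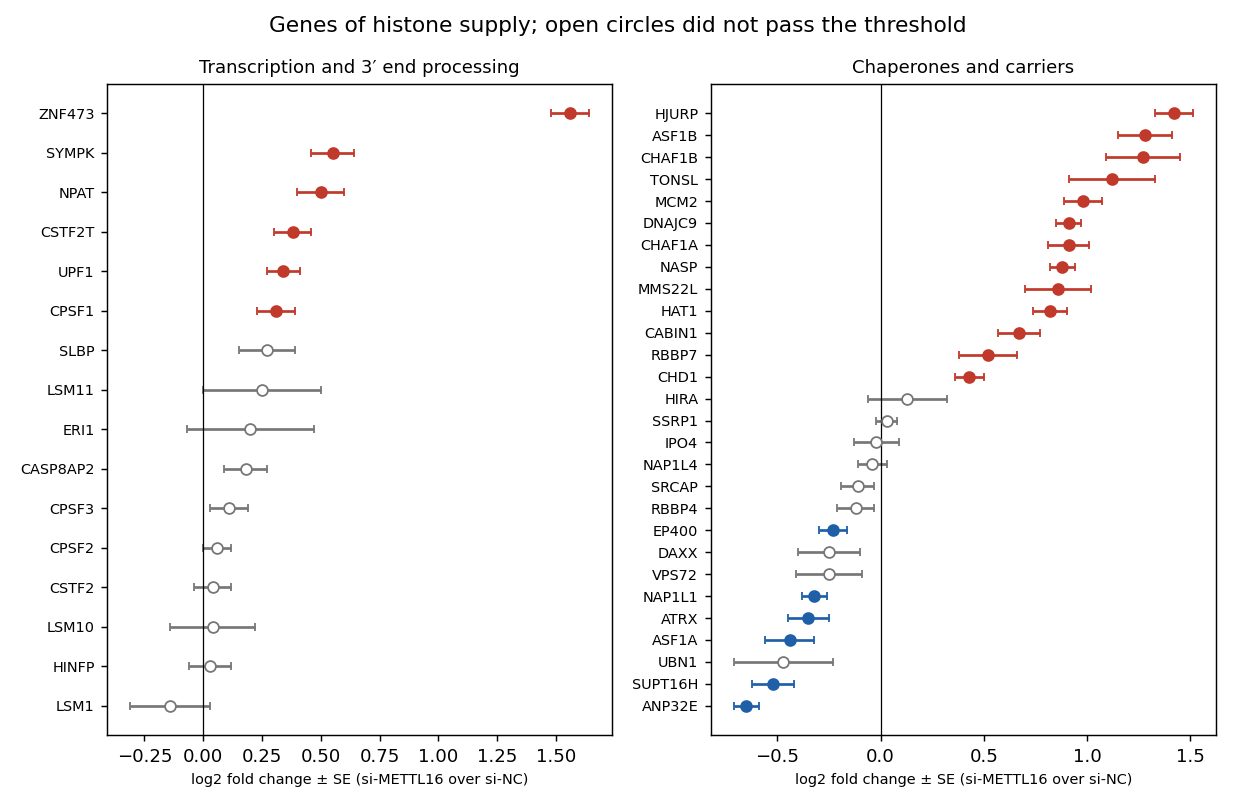
Log2 fold change ± SE (si-METTL16 over si-NC) of 16 genes of transcription and 3′ end processing of clustered histone mRNA and of 28 histone chaperones and carriers. Red points were called higher, blue points lower, and open points did not pass the threshold. The first list holds 6 called higher and 0 lower, and the second 13 higher and 6 lower.

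Genes of S phase stood beside these values, and SLBP, MCM2 and CHAF1B belong both to this list and to the lists above. Of 30 S phase genes tested, 28 were called higher (93.3%) and 0 lower, beside 18.4% and 17.5% of all genes. Their median log2 fold change was 0.96. At an unadjusted p under 0.05, and with DESeq2 and limma, 0 were lower as well. The tested clustered histone genes, whose transcription is also tied to S phase, had their median at -0.20, with -0.43 for the HIST1 genes and 0.53 for the HIST2 and HIST3 genes. All these values come from the same 6 samples, and the difference between the lists was not tested. The library kit was an mRNA kit, and how far the clustered rows hold histone mRNAs without a poly(A) tail was not tested. Their median is therefore no measure of all clustered histone mRNA in the cells.

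Lengths behind the deposited FPKM limit comparisons of level between genes. For 4 of 9 variant genes and 2 of 65 clustered genes with a length, the length implied by count and FPKM was longer than the span of the gene itself, as for H2AFZ with 6473 bases implied over a span of 2303 bases. No order of levels between genes is therefore given. Within a gene the FPKM follows the counts by its definition, so it adds no separate evidence. It went from 117 ± 1.62 to 236 ± 12.4 for H1F0 and from 67.5 ± 0.448 to 25.5 ± 5.05 for HIST1H1C (SD, n = 3).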

How the data were processed

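RNA-seq of PANC-1 cells was analysed, with 3 si-NC and 3 si-METTL16 samples grouped by title. For 58735 genes the authors deposited raw read counts, not normalized, and FPKM, the counts divided by gene length and by total count. RNA was extracted with an Ultrapure RNA kit, libraries were made with a SMARTER mRNA-Seq kit and sequenced on a HiSeq 2500 instrument. The submitters' processing notes name HISAT2 2.0.4, StringTie 1.3.0 and GRCh38; the counting program, the annotation release, the use of strand and the treatment of reads that map to several places are not given in the sources used here, so overlapping genes and copies are uncertain. No column belonged to other samples (0 columns).

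The members and lists were chosen with earlier results of these data known. Counts were filtered with filterByExpr (minimum count 10, minimum total 15), scaled by TMM and compared by the quasi-likelihood test (R 4.3.3, edgeR 4.0.16), adjusting p-values after Benjamini and Hochberg over 15089 genes at a threshold of 0.05. The methods of the study name limma, which was run as an alternative. Standard errors were derived from F statistics. The common biological coefficient of variation was 16.5%, and 3 counts, the floor of a library, equal 0.166 to 0.191 CPM. P-values measure the spread between samples that the methods call biological replicates.

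Genes named in the text were METTL16, the 9 variant genes, the 12 clustered genes with the highest mean CPM, the 5 highest and 5 lowest called clustered genes with non-overlapping groups, a fixed choice of supply genes and CENPA. RN7SL2 and the other tested RNAs without a tail, SUPT16H, SSRP1, HIST1H4C, HIST1H2BN and neighbours of named genes were added after their values were seen. So were CABIN1 and EP400. Alternatives were a replicate block, leave-one-out fits, no filter, a filter of 10 counts in all samples, and a threshold of 0.01. RLE factors, computed in edgeR in place of TMM, were another. The Wald test of DESeq2 1.42.0 and limma 3.58.1 on voom values were also run. So was limma on log2(FPKM + 1) and log2(FPKM + 0.1) above a mean FPKM of 1. For the sums, library totals without TMM were used as well. Summing near-identical copies was added after seeing the data. Scripts were tested on simulated data.

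Gene models came from GENCODE v44, in which 79 of 84 members were found by identifier and 8 had the same start and end. Promoters came from RefSeq (GRCh38.p14), matched by symbol for 37 members. Coordinates of genes are those of the deposited table, and protein sequences were not used here. A marker on the list used to check the cell line is not reported here. Python 3.11.15, numpy 2.4.6, pandas 2.3.3 and matplotlib 3.10.9 were used.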

Additional observations from a re-analysis of the deposited data

How the results depend on the processing

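At an adjusted p under 0.01, 3035 of all genes were called (1665 higher, 1370 lower), 6 clustered genes (3 higher, 3 lower) and 3 supply and chaperone genes lower. With each sample left out, calls ranged from 4159 to 4526 over all genes (2187 to 2357 higher, 1972 to 2190 lower), from 7 to 10 over clustered genes (3 to 4 higher, 4 to 6 lower), from 4 to 5 over variant genes (4 to 5 higher, 0 to 1 lower) and from 21 to 23 over supply and chaperone genes (17 to 19 higher, 3 to 6 lower). The median log2 fold change ranged from -0.34 to -0.05 for clustered and from 0.22 to 0.61 for variant genes, and the ratio of summed CPM from 0.807 to 0.856 and from 1.46 to 1.57. Without a filter on low counts, 3 supply and chaperone genes were called lower.

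The clustered median was 0.03 without a filter on low counts, -0.01 with at least 10 counts in every sample, -0.07 on log2(FPKM + 1), -0.08 on log2(FPKM + 0.1) and -0.38 with copies summed. Direction turned for HIST2H4A, to -0.01 with the replicate block, -0.03 without si-NC replicate 2, -0.29 without si-METTL16 replicate 1, -0.02 on voom values, -0.01 on log2(FPKM + 1) and -0.03 on log2(FPKM + 0.1), and ranged from -0.29 to 0.18 in leave-one-out fits. It turned for LSM10 without si-NC replicate 2 (-0.13) and without si-METTL16 replicate 3 (-0.06; range -0.13 to 0.21), for ERI1 without si-METTL16 replicate 1 (range -0.04 to 0.48), for HINFP without si-NC replicate 1 (-0.00) and without si-METTL16 replicate 2 (range -0.03 to 0.08), and for HIRA without si-METTL16 replicate 3 (range -0.11 to 0.29). The cause was not tested. RLE factors, computed in edgeR in place of TMM, moved no call of the 49 named genes.

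The methods name no pairing of samples by replicate number. After removal of group means, samples with the same number correlated at 0.0423, 0.0623 and 0.0249. The mean of -0.0216 for different numbers is largely fixed by that removal and is no separate comparison. With the replicate block, 5013 genes were called (2599 higher, 2414 lower), 11 clustered (5 higher, 6 lower), 5 variant and 24 supply and chaperone genes (20 higher, 4 lower). Under the block H3F3A (adjusted p = 0.0259) and SLBP (0.0336) were called higher and ATRX was not called (0.0821, edgeR).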
